A study of Mus musculus with 8 samples.

Results

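The 63 gene rows described here are the chemokines, their receptors and the atypical chemokine receptors among the 28014 gene rows of the count table. They were chosen by symbol alone: Ccl or Cxcl followed by a number, Ccr, Cxcr or Ackr followed by a number, and Ccrl2. By role they comprised 30 rows of CC ligands, 12 of CXC ligands, 16 receptors and 5 atypical receptors. Chemokine genes with other names, such as Pf4, Ppbp and Cx3cl1, were counted among 35 partners of the system. CITE-seq, which reads RNA molecules and antibody tags in the same droplet, had been run on CD31+ cells sorted from the aorta-gonad-mesonephros (AGM) region of mouse embryos at E10.5. There were 5 libraries of WT embryos (WT 1 to 5, strain label C57BL/6) and 3 of embryos of the strain label Meis1-flox/VE-Cre and genotype label Meis1-knockout (Meis1-flox/VE-Cre 1 to 3). In the latter, exon 8 of Meis1 is floxed and the Cre is driven by the VE-Cadherin promoter, which is active in endothelium, so blood cells that descend from it can carry the deletion as well. Each library was a pool of several embryos, and strain label and genotype cannot be told apart in this design. The deposited annotation names 10 cell types: aEC (arterial endothelium), pre-HE (pre-hemogenic endothelium), EHT (endothelial-to-hematopoietic transition), EMP (erythro-myeloid progenitors), Myeloid cells, Megakaryocytes and 4 further endothelial clusters (vEC_1 to vEC_4).

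Chemokines are small secreted proteins that steer moving cells, and their receptors signal through inhibitory G proteins in the cells that are attracted. The CC and CXC families are named after the spacing of their first cysteines, and many receptors accept several ligands of the same family. Atypical receptors bind chemokines without that signal and clear, carry or store them. In blood formation, Cxcl12 and its receptor Cxcr4 hold stem cells in their niche, and CC ligands call monocytes and macrophages into tissue.

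Levels are given as CPM, that is UMIs (unique molecules counted) of a gene, scaled to 1000000 UMIs summed over the cells of a type in a library. In such sums, fewer cells that make a gene and less RNA in each cell cannot be told apart. Total UMIs per library ranged from 20484881 to 79429129 in 15168 cells. Cells had a median of 26572 to 28553 UMIs in WT 1 to 4, 12720.5 in WT 5 and 9611.5 to 14895 in the Meis1-flox/VE-Cre libraries, so WT 5 was the only WT library at the depth of the other genotype. Meis1 itself, read by 3′ tags that do not cover the floxed exon, stood at 56.7 to 77.0 CPM in WT and 20.95 to 36.4 CPM in Meis1-flox/VE-Cre EMP cells, and at 12.7 to 27.6 and 7.78 to 13.2 CPM in Myeloid cells. In pre-HE cells Meis1 stood at 12.9 to 51.35 CPM in WT and 9.57 to 53.05 CPM in Meis1-flox/VE-Cre libraries. In aEC cells these ranges were 0.881 to 1.48 and 1.17 to 2.15 CPM, so the genotypes overlapped in both endothelial types. Of 15135 cell barcodes, 33 were present in more than 1 library. In the WT libraries the 5 endothelial markers summed to 3019 to 3515 CPM in pre-HE and 1869 to 2178 CPM in aEC cells. The 5 arterial markers summed to 2324 to 3137 CPM in pre-HE, 225.1 to 428.3 CPM in aEC and 25.1 to 111.1 CPM in the vEC clusters. Myeloid cells of WT libraries held 1566 to 3364 CPM of 9 macrophage markers and also 735.3 to 999.2 CPM of 9 granulocyte markers.

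Of the 63 rows, 15 had 0 counts in all cells, which allows up to 3 counts each. These were 13 rows of CC ligands (Ccl8, Ccl11, Ccl19, Ccl26, Ccl21b, Ccl21c, Ccl27b and 6 second copies marked by a suffix) and the receptors Cxcr1 and Ccr8. A further 27 members were measured but stayed under 5 CPM in every WT cell type, of which Cxcr3 in EHT cells, at 4.85 CPM, was highest. In UMIs over all cells, the 7 CC ligands among them were Ccl27a (361), Ccl5 (185), Ccl21a (113), Ccl20 (11), Ccl28 (7), Ccl22 (1) and Ccl1 (1). The 7 CXC ligands were Cxcl17 (62), Cxcl3 (49), Cxcl1 (36), Cxcl14 (19), Cxcl9 (15), Cxcl13 (3) and Cxcl15 (2). The 9 receptors were Cxcr3 (208), Ccr7 (62), Ccr10 (49), Ccr9 (35), Ccr3 (19), Cxcr5 (16), Cxcr6 (13), Ccr6 (9) and Ccr4 (8), and the 4 atypical receptors were Ccrl2 (583), Ackr1 (534), Ackr2 (191) and Ackr4 (10). The copies of Ccl21, Ccl27 and Ccl19 are near-identical genes whose reads could be split or dropped in counting, so their levels are uncertain. The other 21 members reached a mean of at least 5 CPM in a WT cell type: 10 of 30 CC ligand rows, 5 of 12 CXC ligands, 5 of 16 receptors and 1 of 5 atypical receptors. Of these 21, 14 were highest in Myeloid cells, 4 in pre-HE cells and 1 each in EMP cells, Megakaryocytes and vEC_4.

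**Figure D1:**
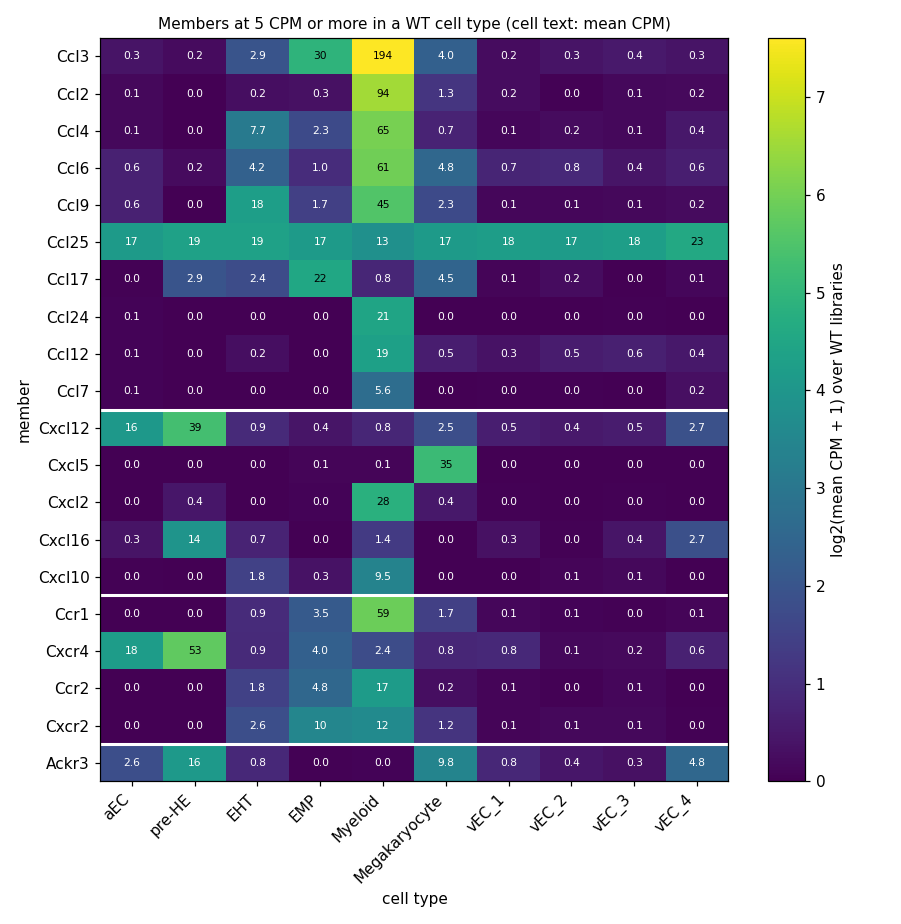
Mean CPM over WT libraries of 20 of the 21 members that reached 5 CPM (rows, CC ligands, CXC ligands, receptors and the atypical receptor Ackr3 separated by white lines) in each of the 10 cell types (columns), with colour on a log2(mean CPM + 1) scale. Myeloid cells held most CC ligands and receptors, pre-HE cells held Cxcl12, Cxcr4, Cxcl16 and Ackr3, and Ccl25 ran from 13.1 to 23.4 CPM in every type.

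The CC ligand Ccl3, which attracts macrophages and other leukocytes through receptors that include Ccr1, was the most counted member, with 12541 UMIs. In Myeloid cells it stood at 237.4, 229.3, 248.8, 179.1 and 76.1 CPM in WT 1 to 5, a mean of 194.1 ± 71.2 CPM (SD, n = 5). EMP cells held 29.6 ± 25.2 CPM, and Ccl3 there ran from 5.19 CPM in WT 5 to 70.7 CPM in WT 3. With each cell thinned to 5000 UMIs, 44.8% ± 14.6 of WT Myeloid cells and 8.96% ± 6.88 of EMP cells had a Ccl3 UMI, against 0.0366% of vEC_1 cells; without thinning the means were 76.6%, 18.6% and 0.502%. Ccl4, a close relative, was lower at 65.0 ± 37.2 CPM in Myeloid cells and was next highest in EHT cells, at 7.74 ± 4.19 CPM. The RefSeq spans of Ccl3 (11:83647843-83649378) and Ccl4 (11:83648624-83664683) overlap, so reads from the shared stretch could go to either gene.

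Several further CC ligands were led by Myeloid cells. Ccl6 and Ccl9, mouse ligands of Ccr1 made by macrophages and their precursors, stood at 61.4 ± 33.4 and 45.4 ± 23.3 CPM there. Ccl9 was also present in EHT cells, at 18.3 ± 3.19 CPM. Ccl2, Ccl12 and Ccl7, which draw monocytes through Ccr2, stood at 93.5 ± 80.3, 19.1 ± 13.3 and 5.56 ± 5.20 CPM in Myeloid cells and at 1.27 CPM or less in every other type. Ccl2 varied most among these, from 15.1 CPM in WT 5 to 213.1 CPM in WT 3. Ccl24, a ligand of the eosinophil receptor Ccr3, reached 20.7 ± 14.9 CPM in Myeloid cells.

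The windows around the start sites of 3 of these CC ligands are shown because their genes are neighbours on chromosome 11 and are compared between the genotypes further on. RefSeq promoter windows of build GRCm38.p6, the build named mm10 in the submitters' processing notes, run from 250 bases before to 50 bases after the start. They were searched on both strands for the kappaB motif, for AP-1 as TGANTCA, MEIS as TGACAG, RUNX as TGTGGT, ETS as GAGGAA and TATA as TATAAA, and capitals mark the matches. Ccl3 lies at chr11:83649329-83649628, Ccl6 at chr11:83593038-83593337 and Ccl9 at chr11:83578587-83578886, all on the minus strand.
Ccl3: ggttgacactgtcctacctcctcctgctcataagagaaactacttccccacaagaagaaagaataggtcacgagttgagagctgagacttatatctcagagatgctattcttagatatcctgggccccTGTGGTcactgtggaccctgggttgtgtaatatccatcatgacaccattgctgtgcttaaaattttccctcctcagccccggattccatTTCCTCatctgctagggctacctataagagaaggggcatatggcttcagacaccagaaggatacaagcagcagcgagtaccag
Ccl6: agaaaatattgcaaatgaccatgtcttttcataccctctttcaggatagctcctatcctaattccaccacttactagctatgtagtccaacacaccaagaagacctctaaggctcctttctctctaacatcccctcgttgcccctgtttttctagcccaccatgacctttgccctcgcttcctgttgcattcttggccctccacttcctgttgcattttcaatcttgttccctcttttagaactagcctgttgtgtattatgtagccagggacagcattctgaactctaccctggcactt
Ccl9: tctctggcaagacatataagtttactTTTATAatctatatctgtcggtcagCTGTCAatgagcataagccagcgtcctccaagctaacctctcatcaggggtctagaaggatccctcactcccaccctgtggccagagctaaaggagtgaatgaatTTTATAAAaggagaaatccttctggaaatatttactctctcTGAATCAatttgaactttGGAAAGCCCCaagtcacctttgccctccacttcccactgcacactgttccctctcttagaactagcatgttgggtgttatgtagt
The Ccl3 window held 1 RUNX match at -122 and 1 ETS match on the opposite strand at -33. The Ccl6 window held 0 matches. The Ccl9 window held a kappaB match at -35, an AP-1 match at -53, a MEIS match at -199 and TATA matches at -224, -94 and -92, of which the last 2 overlap. Of all 32851 promoter windows, 4.79% held the kappaB letters, 7.81% AP-1, 19.2% MEIS, 16.8% RUNX, 28.3% ETS and 13.6% TATA.

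The remaining CC ligands had other patterns. Ccl17, the ligand of the T cell receptor Ccr4, was highest in EMP cells, at 30.4, 34.3, 8.72, 13.7 and 23.7 CPM in WT 1 to 5. Its mean of 22.2 ± 10.8 CPM stood above that of Megakaryocytes, at 4.47 ± 2.45 CPM. Ccl25, known as a thymus and gut ligand of Ccr9, had no leading cell type. It ran from 13.1 ± 1.84 CPM in Myeloid to 23.4 ± 4.42 CPM in vEC_4 cells, and neighbouring types in that order did not differ beyond their spread. Between 6.26% and 10.8% of thinned cells of every type had a Ccl25 UMI. Without thinning the shares ran from 22.2% in pre-HE to 51.5% in EMP cells. The part of RNA free in the droplets in these shares was not tested.

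The CXC ligands fell into separate cell types. Cxcl12, the homing ligand of Cxcr4, stood in pre-HE cells at 27.6, 9.34, 84.3, 30.1 and 45.1 CPM in WT 1 to 5, and in aEC cells at 16.4, 26.1, 0.914, 30.6 and 4.04 CPM. Its means of 39.3 ± 28.2 and 15.6 ± 13.1 CPM overlapped from library to library, and the vEC clusters were at 2.70 CPM or less. The 8 mesenchymal markers, in cells known to make Cxcl12, summed to 32.2 to 88.5 CPM in WT pre-HE and 0.914 to 5.99 CPM in WT aEC cells, with Pdgfrb at 0 in pre-HE, and their part in the Cxcl12 level was not tested. Cxcl16, a membrane-bound ligand of Cxcr6, was highest in pre-HE cells at 14.2 ± 6.68 CPM. Cxcl5, a neutrophil attractant that acts through Cxcr2, was a Megakaryocyte product, at 40.3, 39.1, 38.9 and 22.5 CPM in WT 1, 2, 4 and 5. WT 3 was left out of Megakaryocyte values because it held 5 such cells. Its mean was 0.0742 CPM or less in every other type. Cxcl2, likewise a ligand of Cxcr2, owed its Myeloid mean of 27.7 CPM to WT 3, at 128.9 CPM, while the other 4 WT libraries were at 0.485 to 4.79 CPM. Cxcl10, a ligand of Cxcr3 induced by interferon, stood at 9.53 ± 9.04 CPM in Myeloid cells.

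Among the receptors, Ccr1 had the highest level in Myeloid cells and Cxcr4 the highest in pre-HE and aEC cells. Ccr1 was at 88.3, 79.5, 46.9, 49.99 and 29.5 CPM in Myeloid cells of WT 1 to 5, and 24.95% ± 9.67 of thinned Myeloid cells had a Ccr1 UMI against 0% of aEC and vEC_1 cells. Without thinning these shares were 62.2%, 0% and 0.240%. Ccr2 stood at 17.1 ± 4.499 CPM in Myeloid cells, so that Myeloid cells held Ccl3 together with Ccr1 and Ccl2 together with Ccr2. Cxcr2 was the receptor shared by Myeloid cells, at 11.6 ± 3.15 CPM, and EMP cells, at 10.2 ± 2.69 CPM, which did not differ beyond their spread. Cxcr4 stood at 40.6, 51.4, 19.5, 55.4 and 96.6 CPM in pre-HE cells and at 19.5, 10.6, 27.4, 19.99 and 10.3 CPM in aEC cells of WT 1 to 5. It was higher in pre-HE than in aEC cells of 4 of 5 libraries, the exception being WT 3, which held 11 pre-HE cells. With thinning, 23.0% ± 12.5 of pre-HE, 7.85% ± 3.59 of aEC and 0.286% of vEC_1 cells had a Cxcr4 UMI; without it the means were 33.9%, 18.4% and 1.25%.

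Several ligands stood beside few counts of the receptor they are known to bind. Over all 15168 cells, Cxcr6, the receptor of Cxcl16, had 13 UMIs. Ccr4, the receptor of Ccl17, had 8 UMIs, Ccr3, that of Ccl24, had 19, and Ccr9, that of Ccl25, had 35. Cxcr3, the receptor of Cxcl10, had 208 UMIs and was highest in EHT cells, at 7.23, 6.26, 2.51, 3.91 and 4.34 CPM in WT 1 to 5.

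The atypical receptors were low apart from Ackr3, which takes up Cxcl12. Ackr3 was at 9.22, 18.7, 12.97, 20.6 and 19.3 CPM in pre-HE cells of WT 1 to 5, a mean of 16.1 ± 4.85 CPM. Its next highest mean, 9.85 CPM in Megakaryocytes, came from 29.4 CPM in WT 1 beside 2.90 to 3.74 CPM in the others. Ackr2, a scavenger of inflammatory CC ligands, was highest in aEC cells at 3.24 ± 1.71 CPM, and Ackr1, a store for chemokines on red cells and venules, in vEC_1 cells at 3.03 ± 0.818 CPM. Ccrl2, which holds chemerin on the cell surface, stood at 3.63 ± 2.69 CPM in Myeloid and 3.24 ± 0.832 CPM in EHT cells, and Ackr4, a scavenger of Ccl25 and related ligands, had 10 UMIs in all cells.

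The windows of Cxcl12, Cxcr4 and Ackr3, a ligand, its receptor and its scavenger that were all highest in pre-HE cells, are shown in the same way. Cxcl12 lies at chr6:117168285-117168584 on the plus strand, Cxcr4 at chr1:128592250-128592549 on the minus strand and Ackr3 at chr1:90203730-90204029 on the plus strand.
Cxcl12: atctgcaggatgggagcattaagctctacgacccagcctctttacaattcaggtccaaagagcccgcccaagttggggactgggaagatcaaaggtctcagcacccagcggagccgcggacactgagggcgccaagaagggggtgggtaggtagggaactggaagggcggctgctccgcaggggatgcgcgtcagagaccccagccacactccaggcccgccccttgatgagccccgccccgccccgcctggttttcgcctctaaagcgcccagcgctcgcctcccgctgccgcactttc
Cxcr4: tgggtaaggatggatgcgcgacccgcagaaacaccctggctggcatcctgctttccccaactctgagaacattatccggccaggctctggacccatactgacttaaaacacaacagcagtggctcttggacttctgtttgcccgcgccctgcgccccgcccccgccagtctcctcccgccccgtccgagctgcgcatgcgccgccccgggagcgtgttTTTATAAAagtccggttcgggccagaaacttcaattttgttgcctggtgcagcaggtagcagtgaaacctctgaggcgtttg
Ackr3: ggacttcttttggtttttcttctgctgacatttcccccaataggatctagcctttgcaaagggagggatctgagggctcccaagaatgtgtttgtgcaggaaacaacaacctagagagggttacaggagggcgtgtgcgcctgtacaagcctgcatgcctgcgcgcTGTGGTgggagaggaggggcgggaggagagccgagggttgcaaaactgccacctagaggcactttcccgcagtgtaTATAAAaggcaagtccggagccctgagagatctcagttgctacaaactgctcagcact
The Cxcl12 window held 0 matches. The Cxcr4 window held TATA matches at -32 and -30 on opposite strands, which overlap, and the Ackr3 window held a RUNX match at -84 and a TATA match at -8. Of the 21 members at 5 CPM or more, 14 had a window, and 6 of these held ETS, 5 TATA, 3 RUNX, 3 kappaB, 2 MEIS and 2 AP-1 letters.

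Whether these 3 genes were read in the same cells was counted in WT cells thinned to 5000 UMIs. Of 171 pre-HE cells, 12 had a Cxcl12 UMI without one of Cxcr4, 31 had Cxcr4 without Cxcl12 and 2 had both. In aEC cells the numbers were 55, 53 and 6 of 886. Without thinning, 14 of 171 pre-HE and 31 of 888 aEC cells had both. Ackr3 was read with Cxcl12 in 3 and with Cxcr4 in 2 of the thinned pre-HE cells, and in 0 (which allows up to 3) and 5 of the thinned aEC cells. Without thinning these numbers were 5 and 5 in pre-HE and 6 and 20 in aEC cells. In Myeloid cells, 108 of 1051 thinned cells had UMIs of both Ccl3 and Ccl4, while 360 had only Ccl3 and 39 only Ccl4. Ccl6 and Ccl9 were both read in 79 of these cells, and in 399 of 1052 cells without thinning.

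To follow the members from endothelium to blood, neighbouring cell types of the WT libraries were compared in a fit blocked by library (edgeR quasi-likelihood test, Benjamini-Hochberg adjustment over all genes tested, called at an adjusted p under 0.1). The authors drew the clusters from the same RNA counts, so differences between clusters are partly set by that choice. Members that passed the filter on low counts through 1 of the groups had to differ, so counts of members are given only beside the share of all genes called.

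Arterial endothelium held more Cxcr4 and more of 3 atypical receptors than the vEC clusters. Of the 6 members tested in aEC against vEC, 4 were called, against 59.7% of all genes. Cxcr4 stood at 17.6 ± 7.22 CPM in aEC and 0.378 ± 0.177 CPM in vEC cells and rose by 5.33 on the log2 scale (SE 0.206, adjusted p 1.24e-16 by edgeR with Benjamini-Hochberg adjustment, higher in 5 of 5 libraries). Ackr2 rose by 2.57 (SE 0.288, adjusted p 4.58e-08 by edgeR), Ackr3 by 1.43 (SE 0.276, adjusted p 0.000113 by edgeR) and Ccrl2 by 1.41 (SE 0.287, adjusted p 0.000208 by edgeR), each in 5 of 5 libraries. Ackr1 and Ccl25 did not pass, with log2 fold changes of 0.42 and -0.02. Cxcl12, at 15.6 ± 13.1 and 0.720 ± 0.167 CPM, did not reach the filter on low counts. Without that filter it passed, with 4.82 (SE 0.179, higher in 4 of 5 libraries). That SE is small beside aEC values of 0.914 to 30.6 CPM, so it does not measure the spread between libraries. The median over the 6 members was 1.42 and that over all genes -0.01. Of 22 partners tested, 6 were higher, led by the chemerin receptor Cmklr1 (log2 fold change 2.90), and 6 lower, led by the scavenging receptor Gpr182 (-2.33).

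From aEC to pre-HE cells, Cxcl16, Ackr3 and Cxcr4 rose. Of 5 members tested, 3 were called, all higher, against 42.1% of all genes. Cxcl16 stood at 11.1, 9.34, 25.9, 11.9 and 12.9 CPM in pre-HE cells of WT 1 to 5 and at 0.914 CPM or less in aEC cells, with no overlap and a log2 fold change of 5.30 (SE 0.647, adjusted p 6.49e-09 by edgeR). It rested on 29 UMIs in 171 pre-HE cells. Ackr3 rose by 2.20 (SE 0.394, adjusted p 1.53e-05 by edgeR), again with no overlap between the types. Cxcr4 rose by 1.45 (SE 0.244, adjusted p 5.09e-06 by edgeR) with overlapping values. Cxcl12 had a log2 fold change of 0.62 (SE 0.352, adjusted p 0.175 by edgeR), which lay between 0.21 and 1.26 in the fits without 1 library and passed the threshold without WT 2 or without WT 4. The arterial markers moved with these members, from 225.1 to 428.3 CPM in aEC to 2324 to 3137 CPM in pre-HE cells, and their part in the rise was not tested. Of 13 partners tested, Rgs2, a brake on G protein signals, was higher (1.68) and 6 were lower, led by Mif (-1.79), Gnai1 (-1.62) and Rgs10 (-1.18).

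On entry into EHT, all 4 of these pre-HE members fell and Ccl9 rose. Of 6 members tested, 5 were called, against 61.6% of all genes. In EHT cells of WT 1 to 5, Cxcr4 stood at 0.482, 0.626, 0, 1.56 and 1.63 CPM, below every pre-HE value. It fell by 5.63 on the log2 scale (SE 0.375, adjusted p 1.5e-14 by edgeR). Cxcl12 fell by 5.60 (SE 0.497, adjusted p 1.7e-11 by edgeR), Ackr3 by 4.21 (SE 0.583, adjusted p 2.12e-07 by edgeR) and Cxcl16 by 3.62 (SE 0.643, adjusted p 1.38e-05 by edgeR), each with no overlap. Ccl9 was at 0 in pre-HE cells of all 5 WT libraries and at 14.5, 23.2, 18.4, 16.8 and 18.5 CPM in EHT cells, at least 13.9-fold higher when the pre-HE sum is set to 3 counts. Ccl25 had a log2 fold change of -0.003 (SE 0.278). Without WT 4, which held 87 of the 171 WT pre-HE cells, 2 members were called, since fewer passed the filter on low counts. Of 18 partners tested, 11 were higher, led by Rgs18, Rac2 and Dock2, which act in moving blood cells (8.48, 5.92 and 5.28), and 3 lower (Rgs2 -2.31, Cx3cl1 -1.66 and Gnai2 -1.08).

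**Figure D2:**
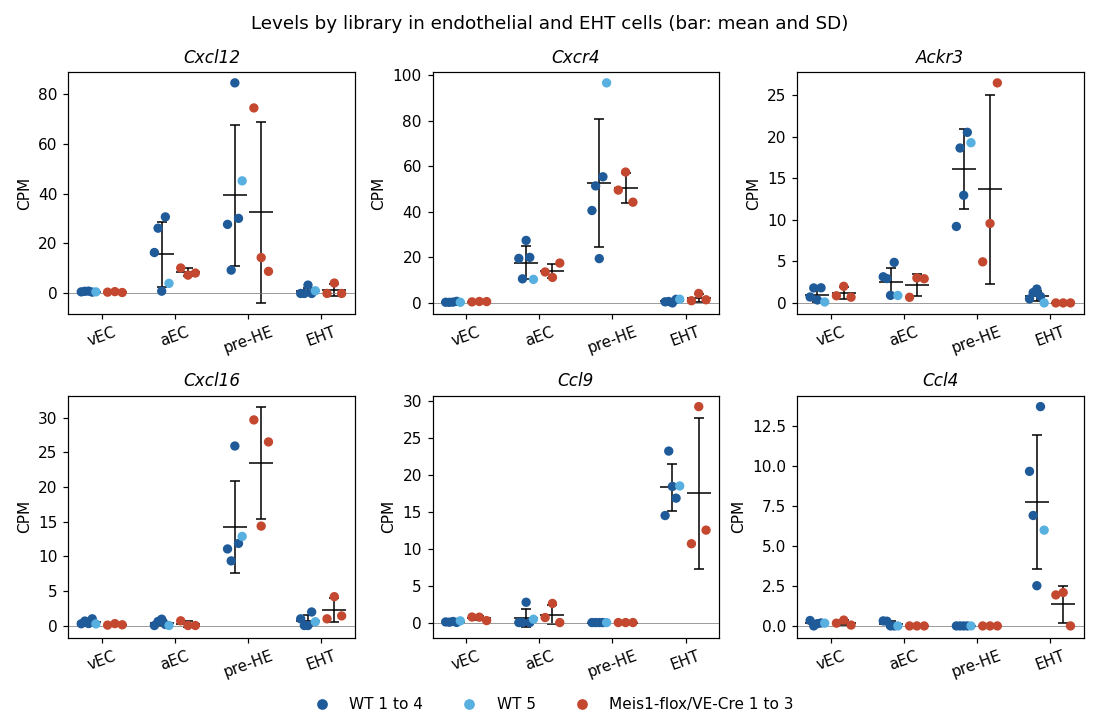
CPM of 6 members by library (points, dark blue for WT 1 to 4, light blue for WT 5, red for Meis1-flox/VE-Cre 1 to 3; bars are the mean and SD of each genotype) in vEC, aEC, pre-HE and EHT cells. Cxcl12, Cxcr4, Ackr3 and Cxcl16 have their highest mean in pre-HE cells of both genotypes, while library values of Cxcl12 overlap between aEC and pre-HE cells. Ccl9 is at 0 in pre-HE cells and reaches 14.5 to 23.2 CPM in WT EHT cells, and Ccl4 is seen in EHT cells.

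EHT and EMP cells, which both carry blood genes, differed in which CC ligands they held. Of 6 members tested, 5 were called, against 56.4% of all genes. Ccl9 was higher in EHT cells by 3.25 (SE 0.233, adjusted p 3.18e-08 by edgeR, 5 of 5 libraries), standing at 1.45 to 1.98 CPM in EMP cells. Ccl4 was higher by 2.17 (SE 0.596, adjusted p 0.00703 by edgeR, 4 of 5 libraries), and by 1.34 (adjusted p 0.0642 by edgeR) without WT 4. Ccl3 was lower in EHT cells by 3.19 on the log2 scale (SE 0.308, adjusted p 6.9e-07 by edgeR), at 1.88 to 3.38 CPM against 5.19 to 70.7 CPM. Ccl17 had a log2 fold change of -3.32 (SE 0.440, adjusted p 1.7e-05 by edgeR) and Cxcr2 one of -2.04 (SE 0.320, adjusted p 8.35e-05 by edgeR), each lower in 5 of 5 libraries. Without WT 5 the Ccl17 value was -5.01. So the close relatives Ccl3 and Ccl4 moved in opposite directions between these types. The median over the 6 members was -0.97 and that over all genes 0.01. Of 19 partners tested, 5 were higher in EHT cells, led by the platelet chemokine Pf4 (1.33), and 7 lower, led by Rgs1 (-2.79).

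Myeloid cells exceeded EMP cells in most members. Of 14 members tested, 13 were called, 10 higher and 3 lower, against 61.1% of all genes. Ccl2 (log2 fold change 8.07), Ccl6 (5.85), Ccl4 (5.30), Ccl9 (4.76), Ccl3 (2.99), Ccr1 (4.10) and Ccr2 (2.08) were higher in 5 of 5 libraries, with adjusted p from 9.89e-10 to 8.19e-05 by edgeR. Ccl24 and Ccl12 had 0 counts in WT EMP cells and were at least 164-fold and 131-fold higher with the EMP sums set to 3 counts. Ccl17 was lower in Myeloid cells (-4.70, SE 0.280, adjusted p 1.91e-07 by edgeR), with no overlap. Cxcr4 (-0.89, SE 0.329, adjusted p 0.0406 by edgeR) and Ccl25 (-0.37, SE 0.137, adjusted p 0.0421 by edgeR) were lower in 4 of 5 libraries. The Cxcr4 call was lost without WT 2 (-0.37) and the Ccl25 call without WT 4 (-0.24). Cxcr2 did not pass (0.22, SE 0.128). Of 22 partners tested, 18 were higher, led by Cd74, Cx3cr1 and Cmklr1 (8.58, 5.64 and 5.43), and 2 lower, Rgs18 (-0.99) and Rac2 (-0.14).

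Megakaryocytes were marked by Cxcl5. Of 5 members tested against EMP cells in 4 WT libraries, 4 were called, against 58.9% of all genes. Cxcl5 had 192 UMIs in Megakaryocytes and 1 in EMP cells, a ratio of rates of 508 with a counting interval of 90.2 to 20200. Cxcr2, Ccl17 and Ccl3 were lower, by log2 fold changes of -2.72 (SE 0.432, adjusted p 0.000679 by edgeR), -2.26 (SE 0.342, adjusted p 0.000504 by edgeR) and -1.95 (SE 0.551, adjusted p 0.015 by edgeR), each in 4 of 4 libraries. Without WT 4 the Ccl3 value was -2.94. Among 20 partners tested, 9 were higher, led by the platelet chemokines Ppbp and Pf4 (12.8 and 10.6) and Rgs10 (3.70), and 8 lower, led by Rgs1 (-3.35).

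Myeloid cells were split into those with more UMIs of the 9 macrophage markers than of the 9 granulocyte markers (macrophage side) and the rest (granulocyte side), a split made after the data had been seen. The macrophage side made up 86.5%, 82.5%, 74.3%, 66.3% and 60.4% of Myeloid cells in WT 1 to 5. Ccl2 and Ccl12 lay almost wholly on it, at 123.2 ± 109.1 and 25.3 ± 16.4 CPM against 10.7 ± 10.6 and 0.632 ± 0.521 CPM on the granulocyte side. Ccl4, Ccl6, Ccl9 and Ccl24 followed, at 80.7, 76.2, 55.2 and 26.5 CPM against 12.4, 20.8, 15.5 and 3.31 CPM. Ccl3 and Ccr1 were high on both sides, at 206.5 ± 74.4 and 65.1 ± 24.6 CPM against 148.9 ± 64.8 and 49.9 ± 25.3 CPM. Ccr2 and Cxcr2, receptors of monocytes and neutrophils, stood at 14.9 and 10.9 CPM on the macrophage side and 21.7 and 13.8 CPM on the granulocyte side, which overlapped. On the granulocyte side WT 3 held 9 cells and was left out.

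**Figure D3:**
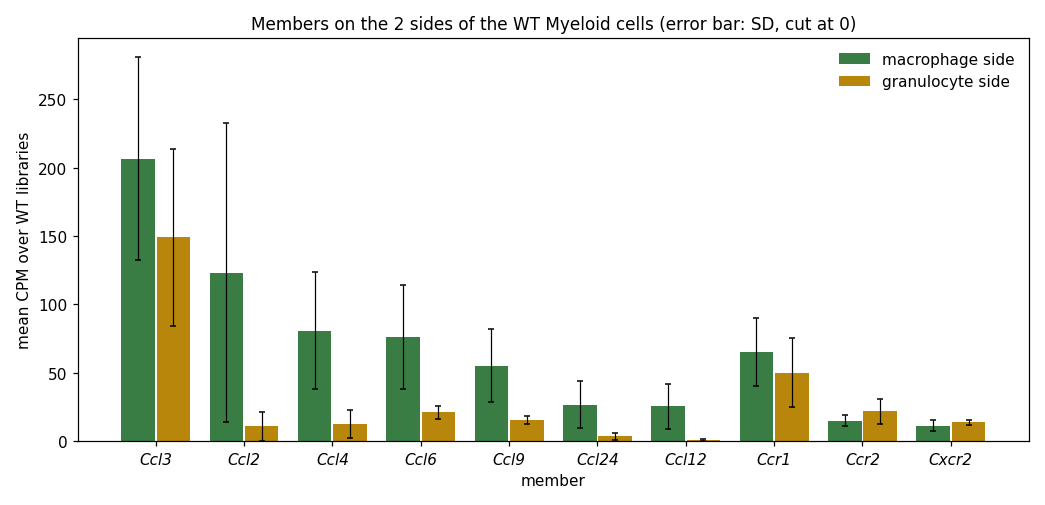
Mean CPM over WT libraries of 10 members (bars, 5 libraries on the macrophage side in green and 4 on the granulocyte side in ochre; error bars are SDs, cut at 0) in WT Myeloid cells. Library values of Ccl2, Ccl9, Ccl12 and Ccl24 do not overlap between the sides, at 24.6 to 297.7 against 0.858 to 22.4 CPM for Ccl2, and those of Ccl4 and Ccl6 do, while Ccl3, Ccr1, Ccr2 and Cxcr2 are present on both.

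To ask which members differ when Meis1 is deleted in endothelium, Meis1-flox/VE-Cre and WT libraries were compared within each cell type by the same test without a block. Here too, members that passed the filter on low counts through 1 genotype had to differ. In the endothelial and EHT clusters no member was called. In aEC cells 0 of 9540 genes passed edgeR's test (0%), while the unadjusted p was under 0.05 for 1000 genes and 11 were called by DESeq2. Of the 4 members tested there, 0 had an unadjusted p under 0.05 and DESeq2 called 0. The share of genes called was 0.489% in pre-HE, 0.127% in EHT and 0.0164% in vEC cells. In these, 0 of 1, 0 of 3 and 0 of 8 members tested passed edgeR's test, 0 had an unadjusted p under 0.05, and DESeq2 called 0.

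Cxcr4, Cxcl16, Ackr3 and Cxcl12, the members at 5 CPM or more that led in pre-HE cells, were present there in both genotypes. Cxcr4 in pre-HE cells was at 49.5, 57.4 and 44.2 CPM in Meis1-flox/VE-Cre 1 to 3, within the WT range, with a log2 fold change of 0.03 (SE 0.378, adjusted p 0.999 by edgeR). Cxcl16 stood at 29.7, 14.4 and 26.5 CPM and Ackr3 at 4.95, 9.57 and 26.5 CPM in the same libraries, and neither reached the filter on low counts. Cxcl12 in pre-HE cells was at 74.3, 14.4 and 8.84 CPM. Cxcl10 and Ccl2 had 0 UMIs in WT pre-HE cells, and 14 and 10 UMIs in those of the Meis1-flox/VE-Cre libraries. They stood there at 0 to 106.1 and 0 to 38.3 CPM, so the genotypes overlapped. Neither reached the filter on low counts, and both passed without it (log2 fold changes 6.37 and 5.76). The Meis1-flox/VE-Cre libraries held 29, 33 and 15 pre-HE cells. On average 3.37% of these cells had a Cxcl10 UMI and 3.23% a Ccl2 UMI without thinning, so both values rest on few cells. In aEC cells Cxcl12 was at 10.2, 7.32 and 8.17 CPM, inside a WT range of 0.914 to 30.6 CPM (log2 fold change -1.10, SE 0.560, adjusted p 0.515 by edgeR), and set against WT 5 alone, which is then assumed to vary like the other libraries, the sign turned (1.02).

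In EHT cells the CC ligands Ccl3 and Ccl4 were low in the Meis1-flox/VE-Cre libraries, but neither passed the filter on low counts. Ccl4 stood at 9.64, 6.89, 2.51, 13.7 and 5.97 CPM in WT 1 to 5 against 1.94, 2.08 and 0 CPM in Meis1-flox/VE-Cre 1 to 3, with no overlap. Ccl3 stood at 1.88 to 3.38 CPM against 0 in each of the 3 libraries, on 27 UMIs in all WT libraries. The Ccl4 values of the Meis1-flox/VE-Cre libraries rested on 3 UMIs in all. When no filter was applied Ccl4 passed, with a log2 fold change of -2.54 (SE 0.695, adjusted p 0.0359 by edgeR). Ccl9 was at 10.7, 29.2 and 12.5 CPM, around the WT values (-0.17, SE 0.319, adjusted p 0.921 by edgeR). Of the 14 early response genes, which cell handling is known to raise, 13 had a lower mean in Meis1-flox/VE-Cre EHT cells, and Egr1 was called lower (-3.05, SE 0.545, adjusted p 0.055 by edgeR). Their sums overlapped, at 365.4 to 691.8 CPM in WT and 352.3 to 416.1 CPM. The 4 mast cell markers went from 0.626 to 2.41 CPM in WT to 8.34 to 234.5 CPM, with no overlap and with Mcpt8 and Fcer1a at 0. The part of either list in the Ccl3 and Ccl4 levels was not tested.

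In EMP cells, Ccr1 was higher in the Meis1-flox/VE-Cre libraries. It stood at 5.62, 4.89, 2.42, 3.02 and 1.48 CPM in WT 1 to 5 against 15.6, 10.6 and 6.46 CPM in Meis1-flox/VE-Cre 1 to 3, with no overlap. Ccr1 rose by 1.64 on the log2 scale (SE 0.374, adjusted p 0.0491 by edgeR with Benjamini-Hochberg adjustment) and was the single call among 7 members tested, against 4.74% of all genes. DESeq2 called 2, Ccr1 and Ccl3. The call was lost without Meis1-flox/VE-Cre 1 (1.30, adjusted p 0.235 by edgeR) or 2 (1.66, adjusted p 0.148), and against WT 5 alone the value was 2.84 (adjusted p 0.147 by edgeR). EMP cells of these libraries also held more of other lineages' markers. The 3 monocyte markers summed to 11.9 to 22.3 CPM in WT and 26.7 to 43.35 CPM in Meis1-flox/VE-Cre, the 7 erythroid markers to 28.6 to 218.2 and 312.7 to 1918 CPM, and the 4 mast cell markers to 52.4 to 139.0 and 208.0 to 293.7 CPM, each with no overlap. The 9 granulocyte markers, at 1406 to 1926 and 1889 to 3274 CPM, and the 9 macrophage markers, at 19.5 to 63.0 and 55.3 to 85.7 CPM, overlapped. Ltf and Mcpt8 of these lists were at 0, and the part of such cells in the Ccr1 level was not tested.

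Other members of EMP cells leaned in either direction without passing. Ccl3 was at 5.85, 5.53 and 5.60 CPM in the Meis1-flox/VE-Cre libraries against 31.4, 26.3, 70.7, 14.2 and 5.19 CPM in WT 1 to 5 (log2 fold change -2.26, SE 0.714, adjusted p 0.129 by edgeR). WT 5 lay with the Meis1-flox/VE-Cre libraries, and against WT 5 alone the value was 0.15. Ccl3 passed without WT 5 (-2.50, adjusted p 0.0233 by edgeR) and in libraries 1 to 3 alone, with the replicate block (-2.79, adjusted p 9.07e-05) or without it (-2.79, adjusted p 0.00269). Ccl17 stood at 7.31, 16.1 and 7.32 CPM against 8.72 to 34.3 CPM in WT (-1.07, SE 0.426, adjusted p 0.219 by edgeR), and Cxcr2 at 17.5, 11.1 and 15.9 CPM against 6.52 to 14.04 CPM (0.62, SE 0.255, adjusted p 0.233 by edgeR). Ccl9 was at 21.9, 5.07 and 3.02 CPM against 1.45 to 1.98 CPM, with no overlap, and did not reach the filter on low counts. Without that filter it passed (2.50, SE 0.489, adjusted p 0.00701 by edgeR). Of 19 partners tested, 1 was higher, Arrb2, an arrestin that ends receptor signals (0.54, SE 0.136, adjusted p 0.067 by edgeR).

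In Megakaryocytes, Ackr1 was higher in the Meis1-flox/VE-Cre libraries. Ackr1 stood at 5.45, 2.17, 0.828 and 3.33 CPM in WT 1, 2, 4 and 5 against 49.3, 24.6 and 25.9 CPM in Meis1-flox/VE-Cre 1 to 3. The groups did not overlap, and Ackr1 rose by 3.55 (SE 0.444, adjusted p 0.0163 by edgeR with Benjamini-Hochberg adjustment), as the single call among 4 members tested, against 0.206% of all genes. Its WT values rested on 17 UMIs, and Ackr1 passed the filter on low counts through the Meis1-flox/VE-Cre libraries, where it is high. The call was lost without Meis1-flox/VE-Cre 1 (3.13, adjusted p 0.197 by edgeR) or WT 4 (3.29, adjusted p 0.104), while against WT 5 alone the value was 3.37 (adjusted p 0.0913 by edgeR). The 7 hemoglobin genes of the erythroid list moved with it, from 402.2 to 7262 CPM in the 4 WT libraries to 8632 to 37350 CPM. By library these genes summed to 3830, 7262, 402.2 and 639.7 CPM in WT 1, 2, 4 and 5. In Meis1-flox/VE-Cre 1 to 3 they summed to 31150, 8632 and 37350 CPM. The part of erythroid cells in the result was not tested.

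The other members of Megakaryocytes did not pass. Cxcl5 was at 12.3, 17.4 and 14.8 CPM in Meis1-flox/VE-Cre 1 to 3, below all 4 WT values (22.5 to 40.3 CPM), with a log2 fold change of -1.19 (SE 0.296, adjusted p 0.236 by edgeR). Against WT 5 alone it was -0.55 (SE 0.372, adjusted p 0.997 by edgeR). Cxcl5 passed without WT 5 (-1.39, adjusted p 0.029 by edgeR) and without the filter on low counts (-1.20, adjusted p 0.024). It also passed in libraries 1 to 3 alone, with the replicate block (-1.45, adjusted p 0.0983 by edgeR) or without it (-1.43, adjusted p 0.0691). Ccl6 stood at 46.6, 9.21 and 3.69 CPM against 1.09 to 11.2 CPM in WT and overlapped it (1.90, SE 0.766, adjusted p 0.484 by edgeR). Of 18 partners tested, 0 were called by edgeR, 4 had an unadjusted p under 0.05, and DESeq2 called 0. The 5 megakaryocyte markers summed to 20610 to 39570 CPM in WT and 12040 to 21980 CPM in Meis1-flox/VE-Cre.

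**Figure D4:**
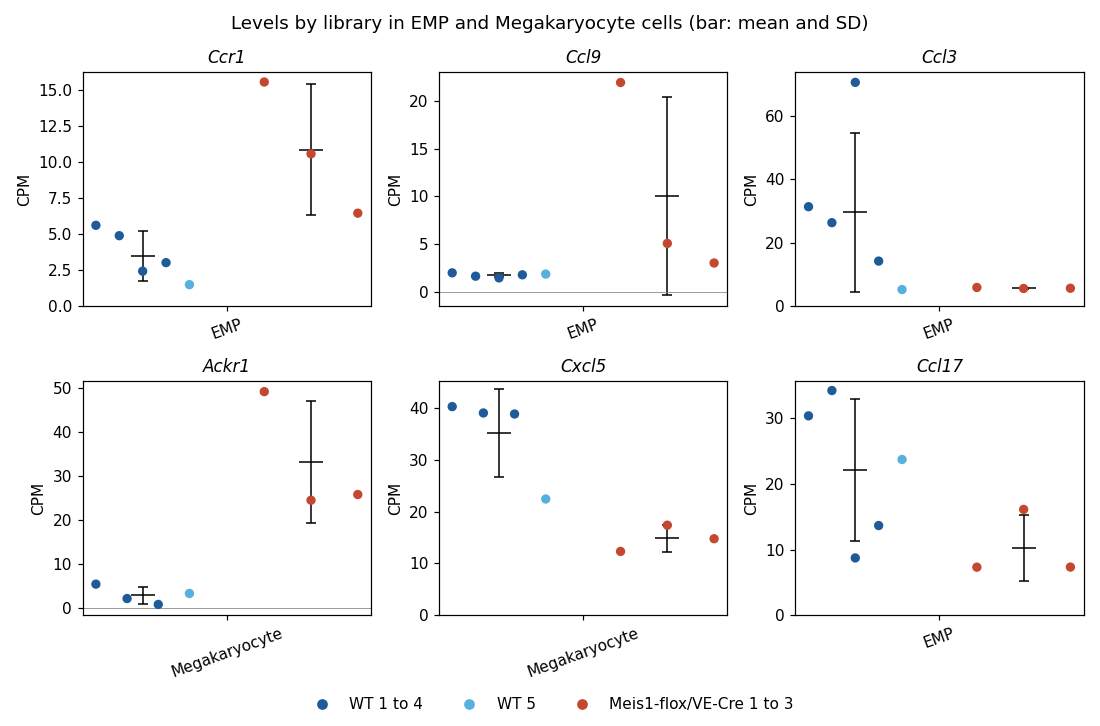
CPM of Ccr1, Ccl9, Ccl3 and Ccl17 in EMP cells and of Ackr1 and Cxcl5 in Megakaryocytes by library (points as colours for WT 1 to 4, WT 5 and Meis1-flox/VE-Cre 1 to 3; bars are mean and SD). Ccr1 and Ackr1 do not overlap between genotypes, at 1.48 to 5.62 against 6.46 to 15.6 CPM and at 0.828 to 5.45 against 24.6 to 49.3 CPM, while WT 5 lies with the Meis1-flox/VE-Cre libraries for Ccl3.

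In Myeloid cells, Ccl4 was lower in the Meis1-flox/VE-Cre libraries than in every WT library. It stood at 108.5, 51.8, 87.0, 67.0 and 10.5 CPM in WT 1 to 5 against 8.54, 8.82 and 9.87 CPM in Meis1-flox/VE-Cre 1 to 3. WT 5 was closer to the Meis1-flox/VE-Cre libraries than to WT 1 to 4. Ccl4 fell by 2.75 on the log2 scale (SE 0.564, adjusted p 0.0406 by edgeR with Benjamini-Hochberg adjustment), the single call among 21 members tested, against 3.26% of all genes. Against WT 5 alone the value was -0.12 (SE 0.238, adjusted p 0.91 by edgeR), and with the depth class as a covariate -0.15 (adjusted p 0.948 by edgeR). The call was also lost without any 1 of the Meis1-flox/VE-Cre libraries (adjusted p 0.148 to 0.219 by edgeR), with values of -2.83 to -2.71. The sum of the 14 early response genes was likewise lowest in WT 5 among the WT libraries, at 2273, 2320, 2514, 1493 and 789.2 CPM in WT 1 to 5 and 848.7, 923.3 and 872.6 CPM in Meis1-flox/VE-Cre 1 to 3. Its part in the Ccl4 level was not tested.

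Ccl3 leaned the same way and Ccl6 and Ccl9 the other way. Ccl3 was at 72.55, 118.5 and 85.2 CPM in the Meis1-flox/VE-Cre libraries (log2 fold change -1.01, SE 0.327, adjusted p 0.173 by edgeR), and against WT 5, at 76.1 CPM, the sign turned (0.35). Ccl6 was at 106.1, 82.2, 20.1, 52.7 and 45.8 CPM in WT 1 to 5 against 127.4, 140.4 and 147.7 CPM in Meis1-flox/VE-Cre 1 to 3. The groups did not overlap, but the log2 fold change of 1.20 (SE 0.328, adjusted p 0.111 by edgeR) did not pass. Against WT 5 alone it was 1.67 (adjusted p 0.00222 by edgeR). Ccl9 stood at 73.5, 67.2, 22.9, 34.8 and 28.6 CPM in WT and 79.4, 98.4 and 62.7 CPM in Meis1-flox/VE-Cre, which overlapped (0.83, SE 0.312, adjusted p 0.232 by edgeR).

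The granulocyte markers moved with genotype in Myeloid cells, from 735.3 to 999.2 CPM in WT to 1638 to 2253 CPM, and the macrophage side made up 58.9%, 69.3% and 64.1% of cells in Meis1-flox/VE-Cre 1 to 3. Within the granulocyte side, Ccl6 stood at 24.4, 19.5, 14.5 and 24.9 CPM in WT 1, 2, 4 and 5 against 68.3, 77.1 and 85.7 CPM in Meis1-flox/VE-Cre 1 to 3. There Ccl6 rose by 1.99 (SE 0.174, adjusted p 0.00036 by edgeR) and Ccl9 by 1.43 (SE 0.178, adjusted p 0.00391 by edgeR). Both ligands were higher on the macrophage side in WT. On the granulocyte side the macrophage markers also went from 328.1 to 720.5 CPM in WT to 827.0 to 839.9 CPM. The sum of the 3 monocyte markers went from 54.9 to 149.6 CPM to 157.4 to 172.7 CPM, each with no overlap. Of these 3, the member Ccr2 had a lower mean, at 21.7 ± 9.16 CPM in WT and 18.6 ± 6.01 CPM in Meis1-flox/VE-Cre, which overlapped. The part of these markers' cells in the rise was not tested. Within the macrophage side, Ccl6 was at 23.4 to 122.5 CPM in WT and 168.5 to 186.3 CPM in Meis1-flox/VE-Cre, with a log2 fold change of 1.21 (SE 0.315, adjusted p 0.111 by edgeR). Ccl4 there was at 124.8, 63.5, 98.2, 102.3 and 14.6 CPM in WT against 11.7 to 13.55 CPM (-2.61, SE 0.529, adjusted p 0.0574 by edgeR).

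No receptor of Myeloid cells passed the test. Ccr1 was at 59.3, 63.3 and 60.7 CPM in the Meis1-flox/VE-Cre libraries, within the WT range (0.10, SE 0.269, adjusted p 0.908 by edgeR). Against WT 5 alone Ccr1 had a value of 1.13 (SE 0.171, adjusted p 0.0124 by edgeR). Ccr2 had a log2 fold change of -0.38 (SE 0.199) and Cxcr2 of 0.26 (SE 0.215), with adjusted p of 0.395 and 0.615 by edgeR. The ligands Ccl2, Ccl12 and Ccl24 had values of -0.83 (SE 0.697), -0.63 (SE 0.563) and 0.43 (SE 0.442), with adjusted p from 0.621 to 0.697 by edgeR. Against WT 5 alone Ccl12 (1.66) and Ccl24 (2.08) passed on the higher side. Of 26 partners tested, Rac2 (0.46, SE 0.118, adjusted p 0.0877 by edgeR) and Adrbk1 (0.34, SE 0.087, adjusted p 0.0828 by edgeR), which serve movement and receptor shut-off, were higher. Rgs1, a brake on chemokine receptor signals, was lower (-3.03, SE 0.471, adjusted p 0.0154 by edgeR), at 3.57 to 8.91 CPM against 14.9 to 70.3 CPM. Of the 14 early response genes, 3 were called lower in this comparison, with a median log2 fold change of -0.96 against -0.01 over all genes.

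**Figure D5:**
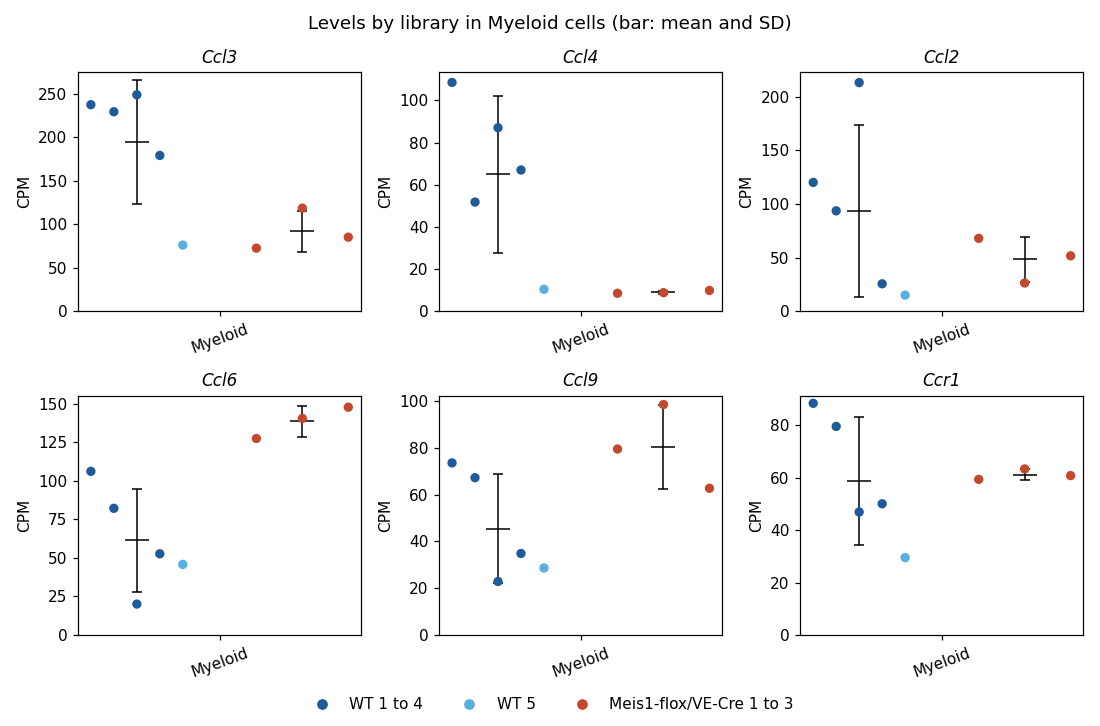
CPM of 6 members in Myeloid cells by library (dark blue for WT 1 to 4, light blue for WT 5, red for Meis1-flox/VE-Cre 1 to 3; bars are mean and SD). For Ccl4 the 3 Meis1-flox/VE-Cre libraries lie at 8.54 to 9.87 CPM just below WT 5 at 10.5 CPM, and for Ccl6 they lie at 127.4 to 147.7 CPM, above every WT library.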

How the data were processed

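CITE-seq libraries of CD31+ cells from the AGM of E10.5 embryos were deposited by the authors as a matrix of whole-number UMI counts per gene and cell with an annotation of genotype, library and cell type. The submitters' processing notes name Cell Ranger 3.0.2 and the build mm10. Per the study's methods, cells with few genes or a high mitochondrial share had been removed, and the clusters named by hand after integration of the libraries. Samples were grouped by the genotype label. Nothing in the sources used here says more of the replicates than that each was a separate pool. The p-values of fits with the filter on low counts therefore measure the spread between these libraries. Without that filter the SE of a gene can understate its spread, as for Cxcl12 in aEC against vEC.

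Here UMIs were summed per library and cell type, keeping sums of at least 10 cells. Genes were filtered by edgeR's filterByExpr, scaled by TMM, and tested with edgeR 4.0.16 (quasi-likelihood F test, R 4.3.3) with Benjamini-Hochberg adjustment over all genes tested, called at an adjusted p under 0.1. Genotypes were compared within a cell type, and cell types in WT with library as the blocking term. The named members were those with a mean of at least 5 CPM in a WT cell type or called in a comparison, and from the 35 partners at most 3 in each direction. Members, partners and marker lists were chosen with earlier results of these data known. DESeq2 1.42.0, other filters, thinning to 5000 UMIs per cell, doublet removal and left-out libraries were tried as alternatives. Of all cells, 83 were called doublets and kept. Intervals and the limit of 3 counts for a count of 0 cover counting error only. Tested on simulated data, the genotype fits recovered between 70.5% (Megakaryocytes, 7553 genes) and 88.0% (vEC, 12092 genes) of 200 genes changed by 1.5 on the log2 scale, and 75.5% in EHT, 76.0% in aEC, 81.5% in Myeloid and pre-HE and 86.5% in EMP cells. Of their calls, 6.75% (aEC) to 12.44% (vEC) were false. The changed genes were drawn from well-counted genes, with 1 fixed dispersion for all genes. These rates therefore do not apply to members with few counts or a wide spread between libraries. Share values with thinning left out 101 cells below 5000 UMIs. Antibody tags were not used, as none read a chemokine receptor. The names of 4712 cells did not carry their library, which was taken from the annotation alone. The values of 1 member are not reported here.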

Additional observations from a re-analysis of the deposited data

Results flagged for a closer look

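In 5 of 37 groups of WT libraries, 1 library stood apart from the others by Dixon's test at 95%, and chance gives about 1 in 20. In Myeloid cells Cxcl10 was at 25.12 CPM in WT 4 and at 1.72 to 7.64 CPM in the others. Cxcl2 in Myeloid cells was at 128.9 CPM in WT 3, which held 35 Myeloid cells, and at 0.485 to 4.79 CPM in the others. Ackr3 in Megakaryocytes was at 29.43 CPM in WT 1 and at 2.90 to 3.74 CPM in the others. Cxcl5 in Megakaryocytes was at 22.46 CPM in WT 5, below 38.9 to 40.3 CPM in the others. Cxcl16 in pre-HE cells was at 25.93 CPM in WT 3, which held 11 such cells, and at 9.34 to 12.9 CPM in the others.

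For 3 members called in a genotype comparison, the effect was set against that in another cell type, and 2 of the 3 had a p under 0.05 by the permutation test below. Members and cell types were chosen after their values had been seen, and the p-values do not allow for that choice. Ccr1 in EMP cells and Ackr1 in Megakaryocytes were taken because they were called there, without overlap between genotypes. Their p-values below therefore lend those calls no support. The effect on Ccr1 was larger in EMP than in Myeloid cells by 1.263 on the log2 scale (two-sided exact permutation test, p 0.0179, the smallest that 56 splits of 5 and 3 libraries allow, 0.0429 after Benjamini-Hochberg adjustment). The effect on Ackr1 was larger in Megakaryocytes than in vEC cells by 3.108 (exact permutation p 0.0286, the smallest that 35 splits allow, 0.0429 adjusted). For Ccl4 the effects in Myeloid and EHT cells differed by -0.465 (exact permutation p 0.625).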

How the results depend on the processing

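Counts of members called are by edgeR unless stated. Without the filter on low counts they were 1 in aEC, 2 in pre-HE, 1 in EHT, 1 in vEC, 5 in EMP, 4 in Megakaryocytes and 2 in Myeloid cells between genotypes, and between WT cell types 6 (pre-HE against aEC), 10 (EHT against pre-HE), 9 (aEC against vEC), 14 (EHT against EMP) and 10 (Megakaryocyte against EMP). Bonferroni adjustment left 0 in EMP, 0 in Myeloid, 2 in aEC against vEC, 3 in EHT against EMP and 1 in Megakaryocyte against EMP. Thinned to 5000 UMIs, with fewer genes past the filter, they were 0 in EMP, 0 in Megakaryocytes, 2 in Myeloid, 1 in pre-HE against aEC, 0 in EHT against pre-HE, 1 in aEC against vEC, 0 in EHT against EMP, 5 in Myeloid against EMP and 0 in Megakaryocyte against EMP. DESeq2 called 2 in EMP, and removing doublets gave 2 in Myeloid cells. With WT 5 as the only WT library there were 0 in EMP and 5 in Myeloid cells, and with the depth class as a covariate 0 in EMP, Megakaryocytes and Myeloid cells. In these fits Cxcl12 in aEC cells turned to 1.02 and 1.03, Ccl3 in EMP cells to 0.15 and 0.14 and Ccl3 in Myeloid cells to 0.35 and 0.33. On the granulocyte side of Myeloid cells there were 2. The cause of these changes was not tested. Without thinning, 59 pairs of member and cell type had a mean WT share of at least 5%.

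Leaving out 1 library at a time gave 0 to 2 calls in EMP, 0 to 2 in Megakaryocytes, 0 to 5 in Myeloid, 2 to 4 in pre-HE against aEC, 2 to 5 in EHT against pre-HE, 3 to 6 in aEC against vEC, 5 to 6 in EHT against EMP and 12 to 14 in Myeloid against EMP. The 5 in Myeloid cells came without WT 5, where Ccl4 had -3.02 (adjusted p 2.1e-05) and Ccl3 -1.22 (adjusted p 0.00169). Over all genes the same fits called 0 to 408 in aEC, 8 to 79 in pre-HE, 0 to 261 in EHT, 0 to 1647 in vEC, 44 to 828 in EMP, 0 to 118 in Megakaryocytes and 44 to 1421 in Myeloid cells.

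Whether same-numbered libraries were handled together is not given. The r of their deviations ran from -0.1853 to 0.2567 over 20 pairs, 6 over 0.1. With the replicate block in libraries 1 to 3, 3 members were called in EMP, 2 in Megakaryocytes and 8 in Myeloid cells, and without the block in those libraries 2, 2 and 7. In 12 of 20 checks, each of 1 of the WT libraries 1 to 3 in 1 cell type, the library correlated best with its own number. Chance gives about 1 in 3, so a pairing of these libraries is not excluded.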
